A study of Mus musculus with 32 samples.

Results

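Imprinted long non-coding RNAs were examined in cultured mouse cortical neurons: Kcnq1ot1, Meg3, Rian, Mirg, Snhg14, Peg13, Airn and H19. These 8 genes were taken by name from a count table of 49671 genes, and all 8 had enough counts to be tested at both time points. They were chosen by way of Kcnq1ot1, which had been selected on its counts in the comparison of miR-124-5p with untreated neurons at 6 h, so the members' values in that comparison are given as a description with no test. The question was whether Kcnq1ot1 differed alone among these RNAs. Outside that comparison, no member passed the edgeR test for an oligoribonucleotide. With miR-92a-1-5p and, separately, with Mut.oligo, the largest estimates at 6 h were those of Kcnq1ot1 and Meg3, against the same untreated libraries that had entered the selection, while Rian and Peg13 stayed within a narrow range.

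The neurons were primary cultures from C57BL/6 embryos with the genotype label WT. They were left untreated or exposed to synthetic oligoribonucleotides that carry the sequence of a microRNA (either miR-92a-1-5p or else miR-124-5p) or to Mut.oligo, a mutated control sequence, for 6 h or 5 d. Each of the 8 combinations had 4 libraries, 32 in all, made from total RNA with a kit that selects polyadenylated RNA and keeps its strand. The labels also give an experiment batch for every library, and no batch held libraries of both time points. All comparisons with untreated neurons at a time point shared the same 4 untreated libraries.

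Genomic imprinting is the expression of a gene from the copy inherited from only 1 of the parents. Imprinted genes lie in clusters, and many clusters hold a long non-coding RNA that is transcribed from the opposite parental copy to the coding genes it regulates. Kcnq1ot1, Airn and the distal part of Snhg14 are paternally expressed transcripts that run antisense to Kcnq1, Igf2r and Ube3a and are linked to silencing in their clusters. Meg3, Rian and Mirg are maternally expressed from the Dlk1-Dio3 cluster, which is prominent in brain, and Rian and Mirg host small nucleolar RNAs or microRNAs. H19 is the maternally expressed partner of Igf2, and Peg13 is a paternally expressed RNA from within Trappc9, next to Kcnk9.

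Kcnq1ot1 (ENSMUSG00000101609) lies on the minus strand at chr7:143203458-143296549 of GRCm38, as a single exon block of 93092 bases that is antisense to Kcnq1. Snhg14 (ENSMUSG00000100826) spans chr7:59307924-59975759 on the minus strand and contains 208 annotated small RNA genes. H19 (ENSMUSG00000000031) is at chr7:142575529-142578143 on the minus strand. On the plus strand of chromosome 12 lie Meg3 (ENSMUSG00000021268) at chr12:109541001-109571726, Rian (ENSMUSG00000097451) at chr12:109603940-109661716 and Mirg (ENSMUSG00000097391) at chr12:109729764-109749460. Within these 3, the annotation places 2, 17 and 14 small RNA genes. Peg13 (ENSMUSG00000106847) is at chr15:72805600-72810324 on the minus strand, and Airn (ENSMUSG00000078247) is at chr17:12741311-12860136 on the plus strand.

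The applied miR-92a-1-5p is shown because its seed, bases 2 to 8 in capitals, decides which transcripts carry a matching site. The sequence is from RefSeq, where GRCm38.p6 places it on the plus strand at chr14:115044437-115044459.
mmu-miR-92a-1-5p: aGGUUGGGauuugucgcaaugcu
The complementary site of 7 bases, CCCAACC, occurred 6 times in the Kcnq1ot1 transcript, 1 time each in the longest Meg3, Mirg and Snhg14 transcripts, and not in those of Rian, Peg13, Airn and H19. Per kilobase, Kcnq1ot1 held 0.0645 sites and Meg3 0.0687, beside 0.0796 over the longest transcripts of 20110 tested genes, of which 21.4% held at least 1 site. The 6 sites in Kcnq1ot1 were therefore no denser than in transcripts at large. miR-124-5p was applied as well.

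RefSeq promoter sequences, from 250 bases before to 50 bases after the start, matched 6 of the 8 members. Windows of 30 bases from Kcnq1ot1 and Meg3 are shown because these were the members with the largest estimates at 6 h, with the motif found in capitals and the sequence written along the strand of the gene. CCAAT is the motif of the factor NF-Y, and TGACGTCA is the cyclic AMP response element. Both strands were searched, and the motifs do not overlap in these windows. The Kcnq1ot1 windows are on the minus strand at chr7:143296718-143296747, chr7:143296678-143296707 and chr7:143296597-143296626, and the matches begin 188, 148 and 67 bases before the start.
Kcnq1ot1 window 1: gtacaagctcacCCAATccaaatgctggag
Kcnq1ot1 window 2: gtttcctcttggCCAATaaaaatagtcagc
Kcnq1ot1 window 3: ttcagcatctgtCCAATcaacagtgtcgtg
The Meg3 windows are on the plus strand at chr12:109540884-109540913 and chr12:109540928-109540957, with matches beginning 100 and 57 bases before the start.
Meg3 window 1: tcatttttccggCCAATcacttttagagaa
Meg3 window 2: gcagaatgcgcTGACGTCAaagaccacccc
A further Meg3 promoter, at chr12:109545148-109545447, held neither motif. Among the other members matched, CCAAT occurred 2 times in the promoter of Snhg14, 1 time in that of Mirg and not in those of Rian and Airn. CCAAT was present in 37.4% of 32851 promoters of this length, 3 or more copies in 3.37%, and TGACGTCA in 1.79%. These matches describe the letters only, and whether a factor binds there was not measured.

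The 32 libraries held 24514090 to 73626029 counts, and a count of 3 was worth between 0.0407 and 0.122 CPM (counts scaled to equal library totals) depending on the library. Kcnq1ot1 had between 86 and 1255 counts in a library. The summed level of 5 neuron markers was 3895 to 5415 CPM in every library, and 4 microglia markers summed to 2.02 to 9.17 CPM. The 2 time points were not counted alike with respect to strand, although the methods describe strand-specific counting for the data. mt-Nd6, the coding gene on the other strand of the mitochondrial genome from the rest, was at 737 to 1026 CPM in the 16 libraries at 6 h and at 10.2 to 29.1 CPM in those at 5 d. Med10, whose exon bases are 92.8% covered by exons of the other strand, had 0 counts in all libraries at 6 h and 35.0 to 48.2 CPM at 5 d, the pattern expected if reads of both strands had been counted at 6 h and overlapping ones dropped. Each comparison within a time point is between libraries that shared this feature, whereas differences between 6 h and 5 d contain it.

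Exons of the other strand covered 1.20% of the exon bases of Kcnq1ot1, 6.79% of Meg3 (by Gm26906), 6.91% of Snhg14 (by Ube3a) and 5.73% of H19. The exons of Rian, Mirg, Peg13 and Airn had no such base. At 6 h, however, any antisense read within their exons may also have entered the count.

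The members differed widely in level. Per kilobase of exon in untreated neurons at 6 h, Peg13 was highest at 93.0 RPKM, followed by Rian at 29 and Meg3 at 13.5 RPKM. H19 at 1.93 and Snhg14 at 1.46 RPKM overlapped in range, and Mirg at 0.629, Airn at 0.165 and Kcnq1ot1 at 0.0366 RPKM followed in that order. At 5 d Peg13 at 45.9, Rian at 40.3 and Meg3 at 36.5 RPKM overlapped, Snhg14 was at 3.53 RPKM, and Mirg at 0.746, H19 at 0.654 and Airn at 0.309 RPKM overlapped with their neighbours in the order. Kcnq1ot1 was again lowest, at 0.103 RPKM, on its 93092 exon bases. Between the lowest and highest of the 32 libraries, CPM spanned 12-fold for H19, 8.09-fold for Kcnq1ot1, 5.31-fold for Meg3, 4.21-fold for Airn and 3.35-fold for Snhg14, against 2.56-fold for Peg13, 1.80-fold for Mirg and 1.62-fold for Rian.

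**Figure D1:**
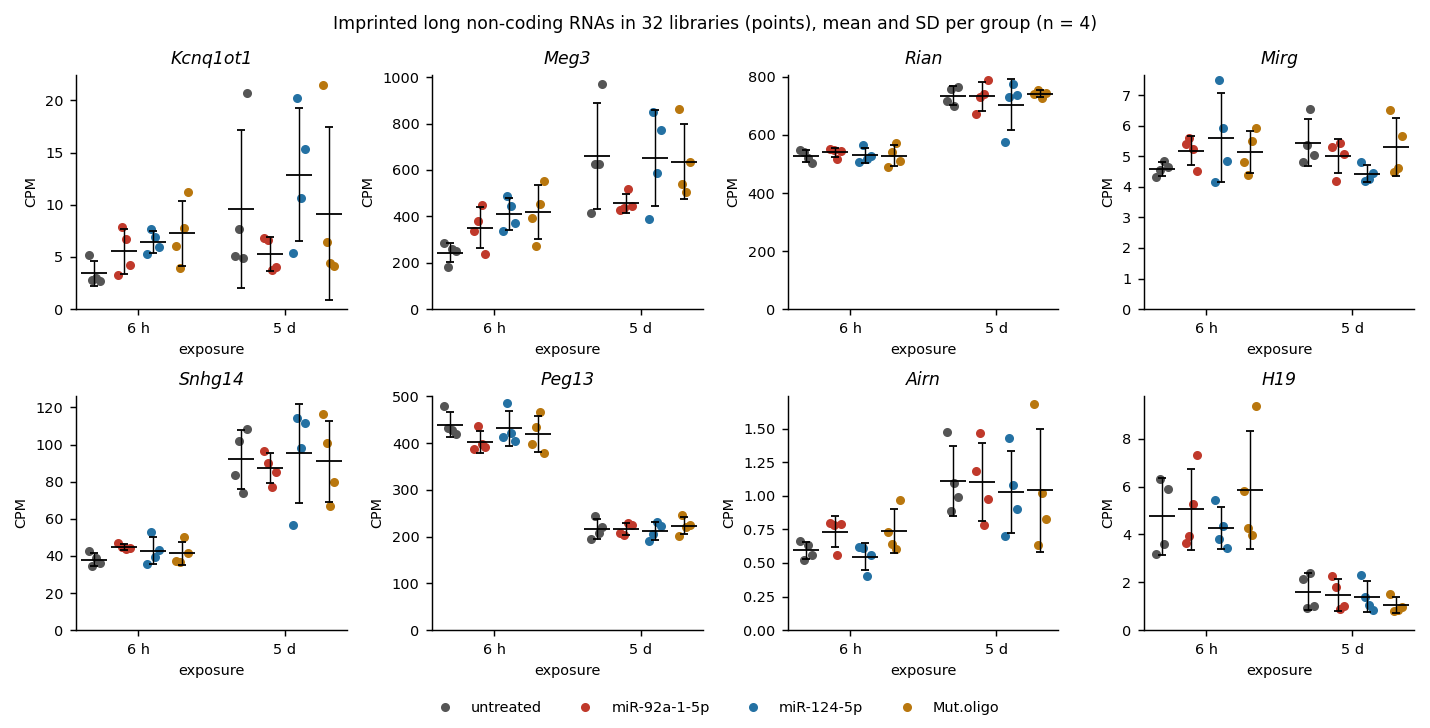
CPM of each member (vertical axes from 0) by group, for 6 h and 5 d; each point is 1 library, horizontal bars mark group means and error bars are SD (n = 4). Kcnq1ot1 and Meg3 scatter widely within groups, with Kcnq1ot1 between 2.65 and 21.5 CPM, whereas Rian and Peg13 stay close together within each time point.

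At 6 h, Kcnq1ot1 was at 5.21, 2.79, 2.99 and 2.65 CPM in the 4 untreated libraries, a mean of 3.41 ± 1.21 CPM (SD, n = 4). With miR-92a-1-5p the libraries were at 3.27, 7.86, 6.74 and 4.25 CPM, and with Mut.oligo at 6.08, 3.89, 7.79 and 11.3 CPM. With miR-124-5p they were at 5.30, 7.65, 6.87 and 5.91 CPM. Untreated replicate 1 stood apart from the other untreated libraries, and it overlapped the miR-92a-1-5p and Mut.oligo groups, while all miR-124-5p libraries lay above it, the lowest of them only slightly.

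The log2 fold change of Kcnq1ot1 at 6 h was 0.70 (SE 0.317, 95% interval 0.03 to 1.37) with miR-92a-1-5p and 1.08 (SE 0.320, 0.41 to 1.76) with Mut.oligo, the control sequence. Neither passed, with adjusted p = 0.999 and 0.374 by edgeR's quasi-likelihood test over all 18755 genes tested. For miR-124-5p, the comparison that had singled it out, the estimate was 0.93 (SE 0.319). Without untreated replicate 1, the estimates with miR-92a-1-5p and Mut.oligo were 0.99 and 1.37 (edgeR adjusted p = 0.999 and 0.280).

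Meg3, which inhibits growth in several cell types and is abundant in neurons, had a similar pattern at 6 h at a much higher level. Its untreated libraries were at 284, 183, 259 and 249 CPM, a mean of 244 ± 43.0 CPM (SD, n = 4). Exposed libraries were at 338, 380, 448 and 237 CPM with miR-92a-1-5p, at 336, 487, 445 and 370 CPM with miR-124-5p and at 394, 273, 454 and 551 CPM with Mut.oligo. Only 1 miR-92a-1-5p library and 1 Mut.oligo library reached into the untreated range. The log2 fold change was 0.52 (SE 0.208, 95% interval 0.08 to 0.96) with miR-92a-1-5p and 0.77 (SE 0.209, 0.33 to 1.21) with Mut.oligo (edgeR adjusted p = 0.999 and 0.311), and the estimate with miR-124-5p was 0.75 (SE 0.209).

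The other RNAs of the Dlk1-Dio3 cluster did not follow Meg3 in size. Rian had means of 528, 541, 529 and 528 CPM at 6 h in untreated neurons and those given miR-92a-1-5p, then miR-124-5p, then Mut.oligo, with coefficients of variation of 3.0% to 6.9%. Its log2 fold changes were 0.03, 0.01 and -0.00 in the same order of exposures. Mirg had means of 4.59, 5.19, 5.61 and 5.15 CPM and log2 fold changes of 0.17, 0.30 and 0.16.

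Snhg14, the host of the Snord115 and Snord116 clusters, was at 42.6, 34.7, 38.9 and 36.0 CPM in untreated neurons at 6 h and at 47.0, 44.6, 43.7 and 44.0 CPM with miR-92a-1-5p. All 4 miR-92a-1-5p libraries thus lay above all untreated ones. The log2 fold change was 0.23 (SE 0.118). Such non-overlap, with the exposed group higher, was seen for 1 of the 8 members and for 1.94% of all genes tested. With Mut.oligo it was seen for 0 members in either direction, beside 4.43% of all genes, and with miR-124-5p for Kcnq1ot1 and Meg3, where the share over all genes was 1.97% and nothing is read from the count.

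Peg13 had means of 439, 403, 431 and 420 CPM at 6 h, with log2 fold changes of -0.13 (SE 0.0811), -0.02 and -0.07. Airn, which silences Igf2r in other tissues, was low at means of 0.593, 0.733, 0.548 and 0.735 CPM, and its log2 fold changes were 0.30, -0.12 and 0.30. H19 was at 3.18, 6.33, 3.59 and 5.91 CPM in untreated libraries, and its estimates were 0.09, -0.15 and 0.29. Its untreated libraries alone spanned a wider range than the differences between groups.

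At 6 h the test called 0 of the 8 members and 0% of all genes with miR-92a-1-5p or Mut.oligo, and 0% of all genes with miR-124-5p, from which nothing is read for the members. In the edgeR test, Kcnq1ot1 and Meg3 were below an unadjusted p of 0.05 with miR-92a-1-5p and also with Mut.oligo. In edgeR 4.75% and 9.49% of all genes were below it in these comparisons. Both used the untreated libraries that had entered the selection of Kcnq1ot1, so they are independent neither of that choice nor of each other. When the fit took the experiment batch into account, edgeR gave Kcnq1ot1 a log2 fold change of 0.70 (SE 0.176, adjusted p = 0.0758) with miR-92a-1-5p, Meg3 0.51 (SE 0.126, adjusted p = 0.0697) and Peg13 -0.13 (SE 0.0309, adjusted p = 0.0641), and called no member beside 0.208% of all genes. DESeq2 with the batch called Kcnq1ot1 with miR-92a-1-5p at 0.68 (SE 0.186, adjusted p = 0.0223), as 1 of 26 genes or 0.139%. Without untreated replicate 1 this call was lost (adjusted p = 0.172), although the estimate was no smaller, at 0.71 (SE 0.224). With miR-124-5p the same fit called 1 gene of all tested (0.00533%), which was Kcnq1ot1, the call that chose the members. That call was also lost without untreated replicate 1, where the estimate was 1.10 (SE 0.255). Over the 16 settings with miR-92a-1-5p that gave Kcnq1ot1 an adjusted p, of 17 run, this ranged from 0.0223 to 1.00. For Peg13 the lowest adjusted p over the edgeR and DESeq2 settings was 0.0380, with estimates of -0.20 to -0.06, under the fold threshold.

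**Figure D2:**
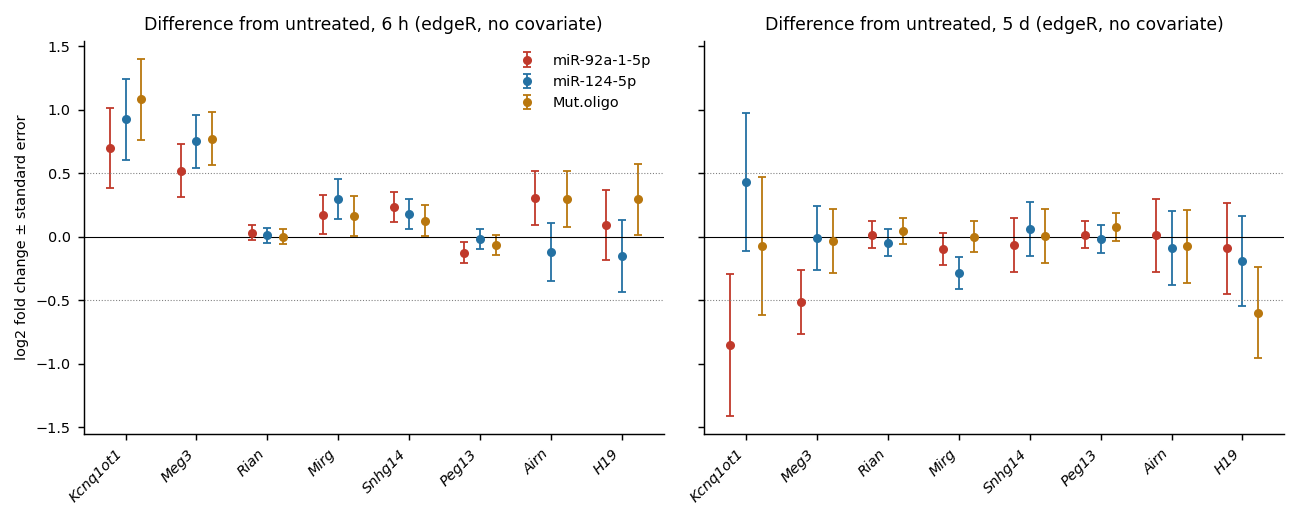
Log2 fold change of each member against untreated neurons (vertical axis, edgeR without a covariate) for the 3 oligoribonucleotides at 6 h and 5 d; points are estimates, bars are standard errors and dotted lines mark the fold threshold of 0.5. At 6 h Kcnq1ot1 and Meg3 lie above 0.5 for all 3, Mut.oligo included, and the miR-124-5p comparison there had selected Kcnq1ot1. At 5 d the Kcnq1ot1 points fall on both sides of 0, and those of Meg3 lie at -0.52, -0.01 and -0.03.

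The 3 oligoribonucleotides were also compared with one another. The log2 difference of Kcnq1ot1 at 6 h between miR-92a-1-5p and Mut.oligo was -0.38 (95% interval -1.03 to 0.26), between miR-124-5p and Mut.oligo -0.16 (-0.81 to 0.49), and between miR-92a-1-5p and the other microRNA -0.23 (-0.87 to 0.42). No member, and 0% of all genes, was called between oligoribonucleotides by edgeR at either time.

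Some exposed libraries shared an experiment batch with an untreated library of the same time: 4 with miR-92a-1-5p, 2 with miR-124-5p and 2 with Mut.oligo at 6 h. Within these batches the log2 CPM of Kcnq1ot1 was higher than in the untreated library by 0.13, 0.59, 1.31 and 0.61 with miR-92a-1-5p, by 0.96 and 0.97 with miR-124-5p and by 1.15 and 0.56 with Mut.oligo. All 8 differences were above 0, but several used the same untreated library, and the 2 with miR-124-5p belong to the comparison that selected Kcnq1ot1, so the count is a description. Meg3 was also above 0 in 8 of 8, between 0.38 and 0.83.

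Snhg14 was higher in 7 of 8 of these within-batch differences (-0.03 to 0.35), Mirg in 6, Rian and Airn in 5 and H19 in 4. Rian lay between -0.08 and 0.08. Peg13 was lower in 8 of 8, but by only 0.05 to 0.14. Outside the members, the nuclear RNA Malat1, which is not imprinted, was higher in 8 of 8, by 0.18 to 1.16. So were the nuclear RNA Miat (0.28 to 0.69) and the domain partners Dlk1 (0.06 to 0.85) and Igf2r (0.07 to 0.28). Snrpn, of the Snhg14 domain, was lower in 8 of 8, and the other named partners and nuclear RNAs had both signs. The share of all genes with the same sign in all 8 was not computed. With miR-92a-1-5p alone the median was 0.83 for Malat1, 0.60 for Kcnq1ot1 and 0.40 for Meg3.

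**Figure D3:**
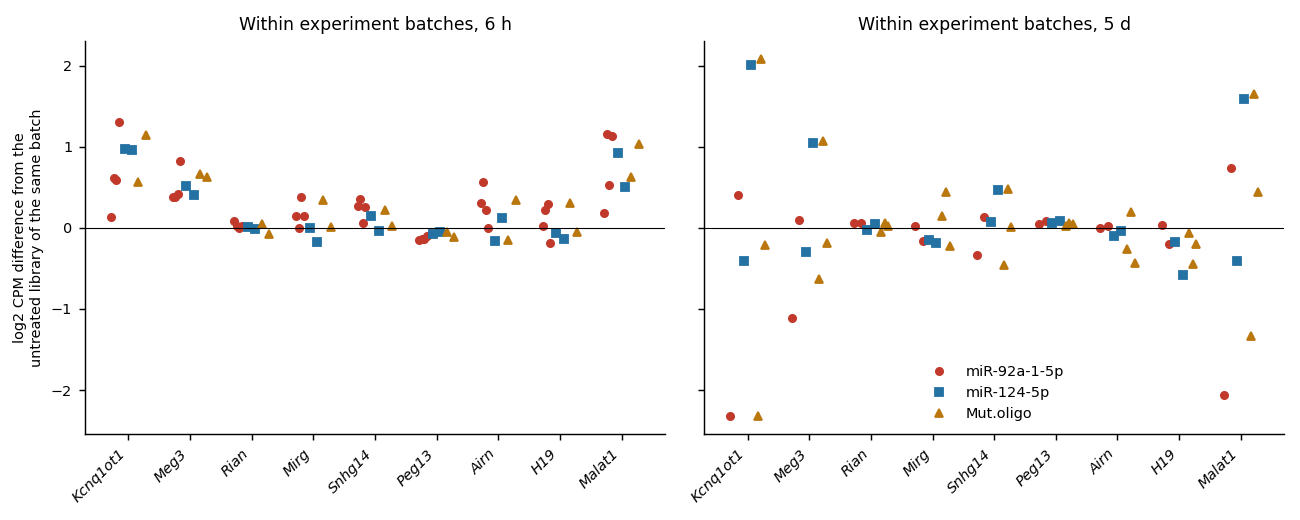
Log2 CPM of an exposed library minus that of the untreated library of its experiment batch (vertical axis), for each member and Malat1 at 6 h and 5 d; each point is 1 batch. At 6 h all 8 points of Kcnq1ot1, Meg3 and Malat1 lie above 0, Rian lies between -0.08 and 0.08, and at 5 d Kcnq1ot1 ranges from -2.32 to 2.09.

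At 5 d Kcnq1ot1 varied more between libraries within 3 of the 4 groups than the group means differed. Untreated libraries were at 5.06, 7.66, 4.85 and 20.7 CPM, and those with miR-92a-1-5p at 6.85, 6.60, 3.75 and 4.08 CPM. With miR-124-5p the values were 5.36, 20.3, 10.6 and 15.3 CPM, and with Mut.oligo 21.5, 6.47, 4.40 and 4.15 CPM. Every group except miR-92a-1-5p thus held at least 1 library above 20 CPM. The log2 fold changes were -0.85 (95% interval -2.04 to 0.33) with miR-92a-1-5p, 0.43 (-0.72 to 1.58) with miR-124-5p and -0.07 (-1.23 to 1.08) with Mut.oligo. Without untreated replicate 4, the library at 20.7 CPM, they were -0.13, 1.16 and 0.66, and none passed (edgeR adjusted p = 1.00, 1.00 and 0.999). The log2 difference of miR-92a-1-5p from miR-124-5p was -1.28 (-2.47 to -0.10) and did not pass (edgeR adjusted p = 1.00).

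Meg3 at 5 d was at 416, 627, 627 and 972 CPM in untreated neurons and at 428, 435, 516 and 446 CPM with miR-92a-1-5p, a log2 fold change of -0.52 (SE 0.252). Its estimates with miR-124-5p and Mut.oligo were -0.01 and -0.03. The highest untreated Meg3 library, replicate 4, was also the highest for Kcnq1ot1, and without it the Meg3 estimates were -0.26, 0.25 and 0.22. Snhg14 had group means of 92.1, 87.2, 95.2 and 91.0 CPM at 5 d, Rian of 735, 733, 704 and 743 CPM and Peg13 of 217, 217, 212 and 224 CPM, listed from untreated to Mut.oligo as above.

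The low members at 5 d were likewise close between groups. Mirg was at 5.44, 5.00, 4.43 and 5.32 CPM, with a log2 fold change of -0.29 (SE 0.125) with miR-124-5p. Airn was at 1.11, 1.10, 1.03 and 1.04 CPM and H19 at 1.61, 1.48, 1.40 and 1.03 CPM, with an H19 estimate of -0.60 (SE 0.359) for Mut.oligo. At 5 d 0 members were called by edgeR, beside 0.00517% of all genes with miR-92a-1-5p and 0% with the other two. In edgeR only Mirg with miR-124-5p was below an unadjusted p of 0.05, while 3.63%, 2.6% and 2.79% of all genes were below it. At 5 d 0 members had groups that did not overlap, beside 2.56%, 1.44% and 1.98% of genes.

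Within batches at 5 d, Kcnq1ot1 differed from the untreated library by 0.41 and -2.32 with miR-92a-1-5p, by 2.00 and -0.41 with miR-124-5p and by 2.09, -0.21 and -2.32 with Mut.oligo. Both values of -2.32 were against untreated replicate 4, the library at 20.7 CPM. Peg13 was higher in 7 of 7, by 0.02 to 0.09, and so was the nuclear RNA Tug1, by 0.02 to 0.17. The share of all genes with the same sign in all 7 was not computed.

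Whether the early and late differences were unequal was tested as an interaction. The change at 5 d minus that at 6 h was -1.54 (SE 0.694) for Kcnq1ot1 and -1.03 (SE 0.343) for Meg3 with miR-92a-1-5p, -0.48 and -0.75 with miR-124-5p, and -1.12 and -0.78 with Mut.oligo. Over the settings run, the Kcnq1ot1 value ranged from -2.34 to -0.72 with miR-92a-1-5p and from -2.54 to 0.22 with Mut.oligo. No interaction of a member was called, and 0% of all genes were. Without a covariate, edgeR adjusted p of the members was 1.00 with miR-92a-1-5p and 0.857 to 0.968 with Mut.oligo. For Peg13 with miR-92a-1-5p, the lowest adjusted p over the edgeR and DESeq2 settings was 0.0209. Its estimates there were 0.06 to 0.33, under the fold threshold.

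Kcnq1ot1 and Meg3 also moved together between replicate libraries of the same group. After subtraction of the 8 group means, the log2 CPM of Kcnq1ot1 correlated with that of Meg3 over the 32 libraries (r = 0.787, rho = 0.720, permutation p = 5e-05, adjusted p = 0.0002 over 16 relations), with r = 0.773 at 6 h, 0.810 at 5 d and 0.741 without the 2 libraries farthest from the median. With experiment batch means removed as well, r was 0.877. Snhg14 also correlated with Kcnq1ot1 (r = 0.743, rho = 0.765, permutation p = 1e-05, the smallest that the permutations can give), with r = 0.424 at 6 h and 0.835 at 5 d. Airn (r = 0.455, permutation p = 0.0508, adjusted p = 0.116), Rian (r = 0.337), Mirg (r = 0.240), Peg13 (r = 0.167) and H19 (r = -0.0815) did not pass. With batch means removed as well, r was 0.812 for Snhg14, 0.404 for Airn, 0.527 for Rian, 0.326 for Mirg, 0.581 for Peg13 and -0.431 for H19, given without a test. The permutations were made within groups and did not take the batch into account.

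The same deviations were shared with RNAs that are not imprinted. Malat1 (r = 0.889, rho = 0.892) and Miat (r = 0.636, permutation p = 0.00101, adjusted p = 0.00323), both nuclear RNAs, correlated with Kcnq1ot1. Among the 5 genes most like Kcnq1ot1 of 17851 were Med12, Birc6, Dync2h1 and Prkdc, the last at r = 0.909. Those most like Meg3 were AI480526 at r = 0.944, Leng8, Nktr, Miat and Abcc5.

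Over coding genes, the median r with Kcnq1ot1 was 0.620 for 397 genes with a longest transcript over 10 kb and -0.230 for 2384 genes of 1 to 2 kb, and with Meg3 it was 0.555 and -0.271. H19 had the opposite signs, -0.214 and 0.141, and the 5 genes most like it included Csrp1 at r = 0.937, Tspan15, Plin3 and Gpx8. These are correlations across genes in the same libraries, and genes are not independent replicates. Among the members, Rian and Peg13 (r = 0.819) and Rian and Snhg14 (r = 0.750) deviated together, while Peg13 and H19 (r = -0.816) and Rian and H19 (r = -0.731) deviated in opposite directions.

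**Figure D4:**
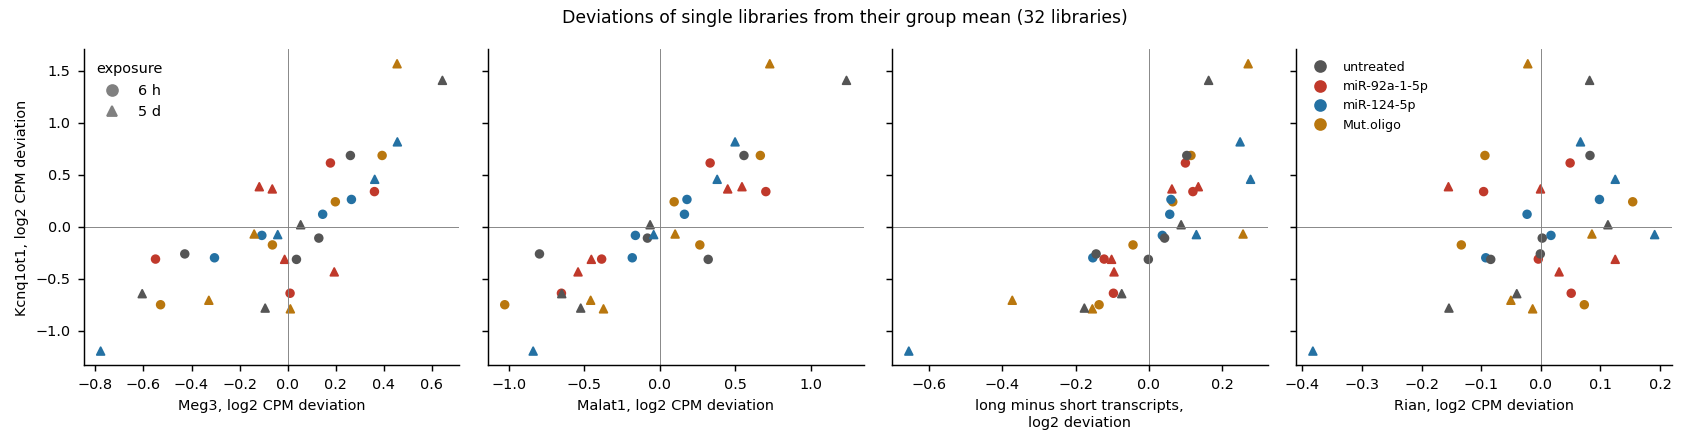
Deviation of log2 CPM from the group mean for Kcnq1ot1 (vertical axis) against that of Meg3, Malat1, the long-transcript difference and Rian (horizontal axes); each point is 1 of the 32 libraries. Meg3 (r = 0.787), Malat1 (r = 0.889) and the long-transcript difference (r = 0.803) are higher where Kcnq1ot1 is, and Rian (r = 0.337) is more scattered.

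A long-transcript difference was computed for each library, as the median deviation of log2 CPM over coding genes with a longest transcript above 10 kb minus that over genes of 1 to 2 kb. It was added after seeing the data and uses the length classes described above in the same libraries. Its correlation with Kcnq1ot1 over libraries (r = 0.803, rho = 0.886) is therefore a description and not a test. Summed histone genes, whose mRNAs lack a poly(A) tail, correlated negatively (r = -0.545, rho = -0.558, permutation p = 0.00499, adjusted p = 0.0133), and summed mitochondrial genes did not pass (r = 0.386, permutation p = 0.0783). At 6 h its mean was -0.11 in untreated libraries, 0.02 with miR-92a-1-5p, 0.01 with miR-124-5p and 0.09 with Mut.oligo, the same order at its ends as Kcnq1ot1.

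With this difference as a covariate, the edgeR estimate of Kcnq1ot1 at 6 h was 0.16 (SE 0.194) with miR-92a-1-5p and 0.25 (SE 0.221) with Mut.oligo, and that of Meg3 was 0.15 (SE 0.105) and 0.19 (SE 0.119). For miR-124-5p the estimates were 0.46 and 0.41. The covariate was computed from the same libraries, and its part in the result was not tested. In bulk RNA, fewer cells of a type and less RNA per cell cannot be told apart.

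Coding genes of the same domains gave 0 calls with any oligoribonucleotide in edgeR without the batch. Of 31 listed neighbours, 25 were tested at 6 h and 28 at 5 d. The 27 imprinted genes of other clusters also gave 0 in that fit. The median log2 fold change of the neighbours was -0.03, 0.00 and -0.03 at 6 h, beside 0.01, -0.00 and -0.00 over all genes. Of 6 nuclear RNAs that are not imprinted, 0 were called, with a median of 0.33, 0.25 and 0.48 at 6 h. Of the 37 listed markers of cell types and of cycling cells, none of those tested was called by edgeR without the batch. The receptor gene Igf2r, silenced by Airn in other tissues, was at 0.20 (SE 0.0757) with miR-92a-1-5p and 0.29 (SE 0.0762) with Mut.oligo at 6 h. The Notch ligand homologue Dlk1 was at 0.13 and 0.42, and the cell cycle inhibitor Cdkn1c, in the Kcnq1ot1 domain, at -0.13 and -0.10. Igf2, the growth factor gene next to H19, had the highest estimate among the neighbours with Mut.oligo at 6 h, 0.97 (SE 0.560), where all 5 fibroblast markers were above 0 with a median of 0.72.

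Igf2 was at -0.31 (SE 0.309) with miR-92a-1-5p at 5 d, and -0.61 (SE 0.0801, edgeR adjusted p = 0.00525) with the experiment batch as a covariate, where it was called. H19 was not called there. In the same setting 10 marker genes of other cells fell with miR-92a-1-5p at 5 d, among 68 genes called (0.352%): Pdgfra, Olig1 and Olig2 of the oligodendrocyte lineage, the endothelial gene Kdr, the contractile genes Acta2 and Tagln, and the proliferation genes Mki67, Top2a, Cdk1 and Ccnb1. With miR-124-5p, Pdgfra, Olig2, Kdr and Tagln fell, beside 0.0259% of all genes called, and with Mut.oligo Pdgfra, Kdr and Tagln fell, beside 0.0466%. The other markers of these lists were not called. In edgeR without the batch, 1 of 5 oligodendrocyte lineage, 1 of 4 endothelial and 2 of 6 mural markers (the list with Acta2 and Tagln) were above 0 with miR-92a-1-5p. Of the 4 markers of cycling cells, 0 were. With miR-124-5p these numbers were 1, 2, 0 and 0, and with Mut.oligo 0, 1, 0 and 0. Summed fibroblast markers were at 30.5 to 175 CPM in untreated libraries at 6 h and 82.1 to 290 CPM with Mut.oligo, and their part in the values of Igf2 and H19 was not tested.

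Between 6 h and 5 d in untreated neurons, most members differed, but time, experiment batch and the unequal counting of strands cannot be told apart. Summed astrocyte markers were at 238 to 468 CPM at 6 h and at 922 to 1796 CPM at 5 d in these libraries. Summed markers of cycling cells were at 162 to 267 and 66.0 to 70.6 CPM, and the sums of neuron markers overlapped. The part of cell composition in the member differences was not tested. Peg13, with no exon base under the other strand, fell from 439 to 217 CPM (log2 fold change -1.03, SE 0.0998, edgeR adjusted p = 6.39e-10), and Airn, also with none, was higher at 0.89 (SE 0.269, adjusted p = 0.00596). Rian at 0.47 (SE 0.0887, adjusted p = 5.12e-05) stayed under the fold threshold, and Mirg at 0.23 did not pass (adjusted p = 0.175). These 4 are the members whose exons share no base with the other strand.

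Of the members with such bases, Meg3 was higher at 5 d by 1.43 (SE 0.247, edgeR adjusted p = 1.43e-05), Snhg14 by 1.27 (SE 0.187, adjusted p = 1.23e-06) and Kcnq1ot1 by 1.50 (SE 0.50, adjusted p = 0.0122). H19 was lower, at -1.58 (SE 0.330, adjusted p = 0.000162). When replicate 4 was left out of every group, the Kcnq1ot1 estimate was 0.66 (edgeR adjusted p = 0.307). That removed the untreated library with the highest Kcnq1ot1 at 5 d, but also other libraries. The untreated libraries at 6 h had also entered the selection of Kcnq1ot1, so its call here is not independent of that choice. In all, 6 of 8 members were called, Kcnq1ot1 included, beside 33.5% of the 20425 genes tested. Among the 14391 genes with no exon base under the other strand, 31.1% were called.

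For the neighbours, Ube3a, the antisense partner of Snhg14 with 27.3% of its exon bases under the other strand, was at 1.00, and Cdkn1c, with 30.7%, was at -1.60. These genes and the 4 overlapped members lie in the class with some but under 50% of exon bases under the other strand, where the median over 5570 genes was 0.11 and 36.6% were called. Over the 288 genes with 50% to 90% of their exon bases under the other strand the median was 1.22, and over the 102 genes with at least 90% it was 5.30, beside -0.01 over genes with none. Gnas, an imprinted gene with 22% and thus in the class under 50%, was at 4.64.

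**Figure D5:**
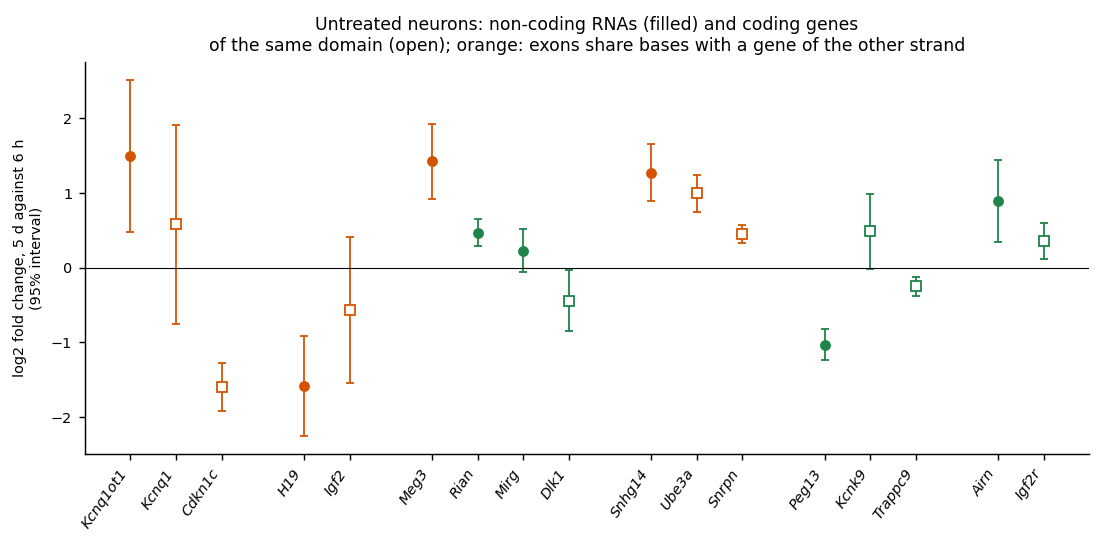
Log2 fold change between 5 d and 6 h in untreated neurons (vertical axis, bars are 95% intervals from edgeR) for the members (filled) and coding genes of their domains (open); orange marks genes whose exons share bases with a gene of the other strand. Peg13 lies at -1.03 and H19 at -1.58, Meg3, Snhg14 and Kcnq1ot1 lie above 1, and the 2 times were counted unequally with respect to strand.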

How the data were processed

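Gene expression was measured by single-end RNA-seq in 32 libraries. Per the labels and methods, the authors aligned reads to GRCm38 with STAR and counted them on exons with featureCounts, and they deposited raw counts per gene without normalization. 0 columns were left unused. Groups came from the labels. Genes that reached 5 counts in 3 or more libraries were fitted with edgeR 4.0.16 (TMM, quasi-likelihood) in R 4.3.3, with the 4 groups of a time point and no covariate. Time and interaction contrasts were fitted over all 32 libraries. A call needed a Benjamini-Hochberg adjusted p under 0.05 over all genes and a log2 fold change beyond 0.5. Log2 CPM used a prior count of 2. Correlations were tested with 100000 permutations within groups. Coordinates and overlaps came from GENCODE M21 on GRCm38.

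The members and lists were chosen with earlier results of these data known. Named genes were the 8 members, listed domain partners, list members called without or with the batch covariate, and the 5 genes most like Kcnq1ot1, Meg3 and H19, of which 2 are not reported here. The neighbours, the nuclear RNAs and the marker lists are hand-written. Alternatives were DESeq2 1.42.0, the experiment batch, the replicate number, other filters and left-out libraries. The long-transcript difference, the removal of single untreated libraries and the strand check were added after seeing the data. The fitting was tested on simulated data. Replicates are labelled as biological, but the labels do not tie them to separate cultures or litters, so p-values measure the spread between these libraries. The 48 replicate pairs had chi-square values per degree of freedom of 6.60 or more, so none was a repeated library.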

Additional observations from a re-analysis of the deposited data

Results flagged for a closer look

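In 4 of 64 groups of a member, 1 library stood apart from its group by Dixon's test for 4 libraries, and chance flags about 1 in 20 groups. Kcnq1ot1 was high at 5.21 CPM in untreated replicate 1 at 6 h, where the next library was at 2.99 CPM, and at 21.5 CPM in Mut.oligo replicate 1 at 5 d, where the next was at 6.47 CPM. In miR-92a-1-5p replicate 3 at 6 h, Rian was low at 516 CPM beside 546 CPM in the nearest library, and Airn was low at 0.562 CPM beside 0.784 CPM.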

How the results depend on the processing

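Of the counts of called members and neighbours, 348 of the values under alternatives stayed within the same range and 6 moved, and none reversed. With any oligoribonucleotide these counts were 0 in edgeR without the batch and so could not reverse. Of the other values compared, 1826 stayed the same, 49 moved, 4 were stronger and 1 was weaker. DESeq2 with the experiment batch called 1 member, Kcnq1ot1, with miR-92a-1-5p at 6 h, where edgeR without the batch called 0. Its call in the same fit with miR-124-5p at 6 h is the one that chose the members, so nothing is read from it. The miR-92a-1-5p comparison used the same untreated libraries. Both calls were lost without untreated replicate 1, where the log2 fold changes were still 0.71 and 1.10. For miR-92a-1-5p at 5 d, 1 neighbour, Igf2, was called with the batch covariate in edgeR and in DESeq2 with the batch, also with the long-transcript difference or without untreated replicate 4, where 0 were called without the batch. The cause was not tested. Each replicate number was left out of all groups in turn, and the members called between 6 h and 5 d then numbered 5 to 7. Without replicate 4 Kcnq1ot1 was lost, and without replicate 1 or 3 Rian was gained. Single libraries were not left out for this contrast. With the replicate number as a block, 0 members were called with any oligoribonucleotide and 6 between times, as without it. Same-numbered libraries deviated together little (mean r = -0.0324 at 6 h and 0.0897 at 5 d), so the number does not pair them, whereas libraries of the same batch had mean r of 0.261 and 0.198. At these depths 3 counts are 0.0407 to 0.122 CPM, and Airn has few counts.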
